A study of Mus musculus with 27 samples.

Results

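Gene expression was compared between induced pluripotent stem cells (iPSCs) and the mouse embryonic fibroblasts (MEFs) they were made from. The comparison was defined by the cell type named for each RNA-seq library, not by any measured value, and covered all 20156 RefSeq genes listed in the expression tables, with 4 of the 27 samples of the series (2 MEF and 2 iPSC libraries). The other samples were 2 RNA-seq libraries of pre-iPSCs, a stable intermediate of reprogramming, and 21 chromatin libraries from MNase-digested nucleosomes of the same 3 cell types. The MEFs came from embryos at embryonic day 13.5 that were hemizygous for an Oct4-GFP transgene and a Rosa26 allele, on a CBA/CaJ and C57BL/6J background crossed to 129Sv/Jae females, and were kept for at most 3 passages. The iPSCs were derived from such MEFs by retroviral delivery of Oct4, Sox2, Klf4 and c-Myc, so they carry the same alleles, and were grown for 6 passages with leukemia inhibitory factor on MEF feeders inactivated by mitomycin C. RNA of feeder cells can therefore be present in an iPSC library, and reads from a viral copy of a reprogramming factor cannot be told apart from those of the gene itself. The study worked with 2 stable clones. The clone of a library and the embryos behind each MEF library were not given in the sources used here, so the p-values below measure only the spread between these libraries. Libraries titled as repeats are called replicate 2, and each pair of values is written as replicate 1 and then replicate 2.

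Reprogramming turns a mesenchymal cell that secretes and pulls on a collagen matrix into an epithelial cell that self-renews. In mouse pluripotent cells Oct4 (encoded by Pou5f1), Sox2 and Nanog form an interlinked transcription circuit with Esrrb and the Klf factors, which holds differentiation genes back and is fed by leukemia inhibitory factor through Stat3. Fibroblasts rely instead on growth factors of the TGF-beta family and on serum response factor, which together drive collagen, actin and contractile genes.

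Expression was given in FPKM (fragments scaled to transcript length and library size), calculated separately for each of 2 tables that hold 1 library of each cell type. Differences were therefore taken within a table, on log2(FPKM + 1), and tested with limma with the table as a block, the pre-iPSC libraries helping to estimate the spread. Genes counted as changed had to reach 2-fold on this scale with an adjusted p under 0.05. The scale understates the change of genes with low FPKM. In bulk RNA, fewer expressing cells and less RNA per cell cannot be told apart. Read counts were not part of the tables, so the depth of a library is unknown in reads. The smallest steps between low FPKM values put the depth of iPSC replicate 1 at 1.29 times that of MEF replicate 1, and iPSC replicate 2 at 0.881 times MEF replicate 2, as estimates from genes under 0.1 FPKM of which 33.9% and 34.6% lay at the most common ratio. Genes listed at 0 numbered 6150 and 6017 in MEFs and 4867 and 4596 in iPSCs, and those that reached 1 FPKM ranged from 10370 to 10995 over these libraries. Ribosomal protein genes took 17.5% and 28% of the summed FPKM in MEFs and 30.0% and 27.3% in iPSCs.

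Of the 12401 genes whose mean reached 0.5 FPKM over the 6 RNA-seq libraries, 3206 differed between iPSCs and MEFs. Most pluripotency and germline genes tested rose, and most fibroblast, contractile and TGF-beta genes tested fell. A gene listed at 0 in both MEF libraries could pass the filter only through reprogrammed cells, so the counts of rises in the gene groups are a description and not support for a group's direction. In all, 1279 genes (10.3% of those tested) were higher in iPSCs and 1927 (15.5%) were lower. The genes that fell took 28.5% and 24.6% of the summed FPKM in MEFs and 3.77% and 5.93% in iPSCs. The genes that rose took 1.13% and 0.560% in MEFs and 6.05% and 6.74% in iPSCs. Of the rises, 750 were between 2 and 4-fold, 429 between 4 and 16-fold and 100 at least 16-fold, and of the falls 1014, 807 and 106. Both iPSC libraries lay above both MEF libraries in 3310 genes (26.7%) and below in 4495 (36.2%), whatever the test. This count, like later statements on whether groups overlap in FPKM, also compares libraries across the 2 tables, which were normalized separately. Summed FPKM was 492473 and 818207 in MEFs and 527799 and 392424 in iPSCs. The part of this scaling in the counts was not tested. The median log2 change of all genes tested was -0.14, so a median of a gene group is to be read against that value. Among the calls 39.9% were rises, which became 54.7% (1686 higher and 1394 lower) when libraries were scaled to their upper quartile and the median of all genes moved to 0.12. The counts fell without either iPSC library: 360 genes were called higher and 295 lower without iPSC replicate 1, and 510 and 650 without iPSC replicate 2.

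The 2 tables shared no library and could be set side by side. Within the first table, 2124 genes (17.1%) were 2-fold higher in the iPSC library and 3066 (24.7%) 2-fold lower. In the repeat table the counts were 2251 (18.2%) and 3209 (25.9%). Of the genes 2-fold higher, 1179 were so in both tables, which is 55.5% of those of the first and 52.4% of those of the repeat table. Of the genes 2-fold lower 1782 were shared, 58.1% and 55.5% of each set, and 184 genes went 2-fold in opposite directions. All 3206 called genes moved the same way in both tables, which the test favours. Across the genes tested, the differences of the 2 tables had a Pearson r of 0.702, as a description over genes that are not independent. The differences ran with transcript length in opposite directions in the 2 tables. The 2457 shortest transcripts had a median difference of 0.24 in the first table and -0.60 in the repeat table, and the 2456 longest -0.58 and 0.23. By transcript GC content, the 2456 lowest had medians of -0.50 and 0.01 and the 2456 highest 0.25 and -0.21. Length and GC were not separated here, and a cause was not tested. Length and GC content were also regressed out of each library's difference from the mean of the 6 RNA-seq libraries. With that correction 1931 genes were called higher and 1946 lower, of which 1255 and 1769 were also called without it.

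**Figure D1:**
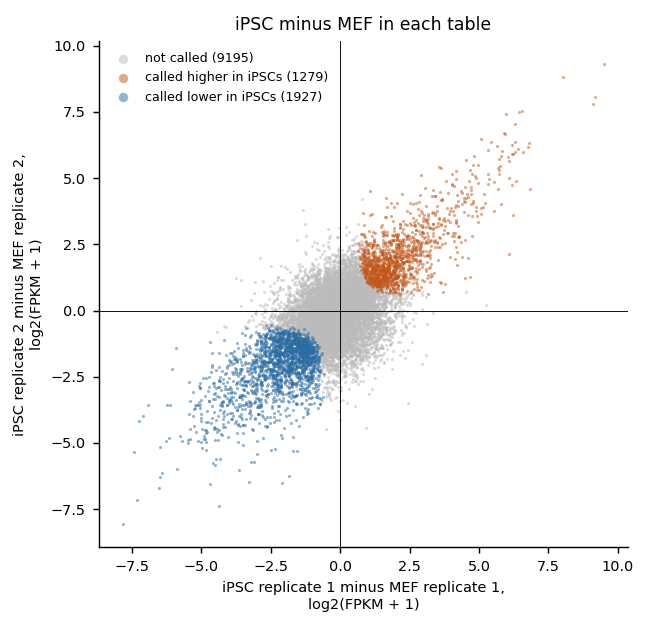
Difference between iPSC and MEF in the first table (x axis, replicate 1) and in the repeat table (y axis, replicate 2) for each gene tested, in log2(FPKM + 1). Points are genes, colored by call; the 1279 genes called higher lie at the upper right, the 1927 called lower at the lower left, and the 2 differences have an r of 0.702.

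Genes of the pluripotency circuit rose. Of 27 tested pluripotency transcription factors 21 rose and 1 fell, with a median log2 change of 3.40. The rises numbered 15 without iPSC replicate 1, 15 without iPSC replicate 2 and 8 when low genes were not filtered out. Pou5f1 (chr17:35642977-35647722 in mm9, plus strand), which encodes Oct4, was listed at 0 and 0.50 FPKM in MEFs and at 586 and 397 FPKM in iPSCs, a log2 change of 8.62 (SE 0.77, adjusted p = 0.00094). Sox2, its DNA-binding partner, stood at 0.124 and 0.128 FPKM in MEFs and 65.7 and 116 in iPSCs, a log2 change of 6.29 (SE 0.43, adjusted p = 0.00063). Both factors were also delivered by virus, whereas the next genes were not. Nanog, a homeodomain factor of the same circuit, was listed at 0 in both MEF libraries and at 49.5 and 73.6 FPKM in iPSCs (adjusted p = 0.00067). Zfp42, which encodes the marker Rex1, was listed at 0 in both and reached 56.0 and 63.9 FPKM (adjusted p = 0.00041). Sall4, a zinc-finger partner of Oct4 and Nanog, was listed at 0 in both MEF libraries and at 94.3 and 62.2 FPKM in iPSCs. The groups did not overlap for any of these genes.

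The remaining reprogramming factors moved in different directions. Klf4 was already present in fibroblasts, at 25.1 and 37.6 FPKM, and rose to 99.6 and 105 FPKM (log2 change 1.70, SE 0.38, adjusted p = 0.018). Myc, the cell growth factor, fell from 57.8 and 36.3 FPKM to 9.85 and 7.34 (log2 change -2.30, SE 0.51, adjusted p = 0.017). Both calls were lost when either iPSC library was left out. Mycn, its paralog, went the other way, from 0.623 and 0.271 FPKM to 46.7 and 40.02 (log2 change 4.94, SE 0.76, adjusted p = 0.0045). Klf2 and Klf5, which share targets with Klf4, were likewise higher, Klf2 at 16.8 and 48.4 against 120.1 and 111 FPKM and Klf5 at 16.5 and 10.2 against 60.2 and 43.1. Among the 5 factors that were not called were Nr5a2, at 0 and 0 FPKM in MEFs against 2.00 and 5.04 in iPSCs (adjusted p = 0.078), and Tbx3, at 6.45 and 3.64 against 7.86 and 17.5 (adjusted p = 0.14).

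Genes known as companions of the pluripotent state rose with these factors. Of 31 tested pluripotency-associated genes 30 rose and none fell, with a median log2 change of 4.63 and a range up to 9.41. Leaving out iPSC replicate 1 gave 23 rises, leaving out replicate 2 gave 21, and omitting the filter 15. Dppa5a (chr9:78214861-78216006 in mm9, minus strand), an RNA-binding protein of early embryos, showed the largest log2 change of all genes called, from 0 and 0.321 FPKM to 725 and 842 (log2 change 9.41, SE 0.38, adjusted p = 0.00026). Utf1, a chromatin factor of pluripotent cells, was listed at 0 in both MEF libraries and at 544 and 220.3 FPKM in iPSCs. L1td1, an RNA-binding protein derived from a retrotransposon, went from 0.0340 and 0 FPKM to 61.9 and 101. Slc2a3, a high-affinity glucose transporter, rose from 0.894 and 0.999 FPKM to 119 and 342. In all 4 genes both iPSC libraries stood far above both MEF libraries. Spp1, a secreted phosphoprotein that fibroblasts and bone cells also make, was the member not called, at 437 and 1576 FPKM in MEFs and 115 and 278 in iPSCs (adjusted p = 0.097). The 12 largest rises also included Trh, the precursor of thyrotropin-releasing hormone (0 and 0 against 78.5 and 129 FPKM), Wfdc2, a secreted protease inhibitor (0 and 0 against 109 and 78.9), and Pla2g1b, a secreted phospholipase (0 and 0 against 108 and 71.1). Upp1, which splits uridine, rose from 1.32 and 0.475 FPKM to 216 and 273.

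**Figure D2:**
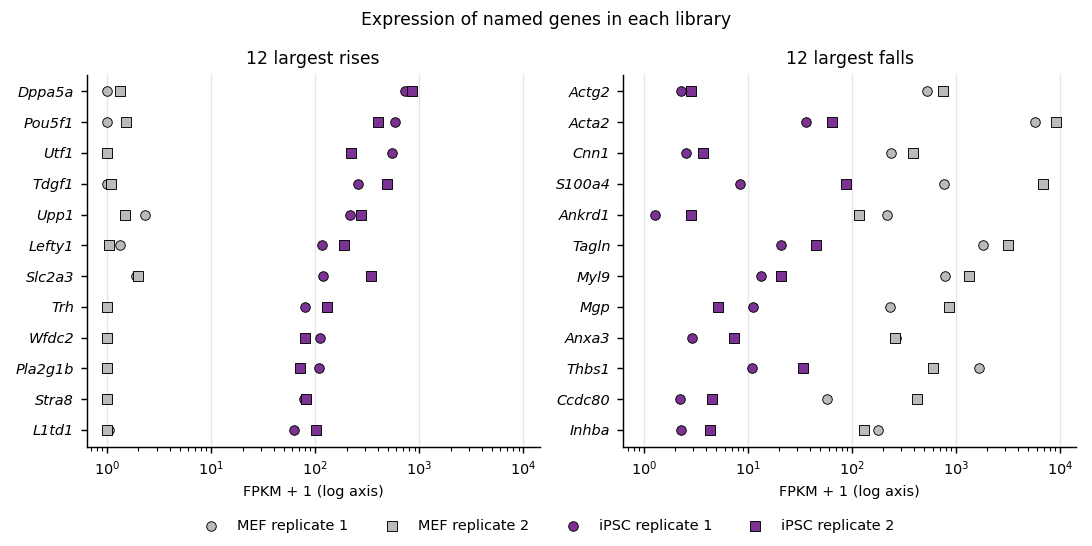
FPKM + 1 (log axis) of the genes with the 12 largest rises and the 12 largest falls in each of the 4 libraries, circles for replicate 1 and squares for replicate 2, gray for MEFs and purple for iPSCs. MEF and iPSC points are separated for all of them, from Dppa5a (0 and 0.321 against 725 and 842 FPKM) to Actg2 (522 and 761 against 1.29 and 1.83 FPKM).

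Genes of the germ line rose in iPSCs. Of 45 germline genes listed 34 passed the filter on low values, which a gene silent in MEFs could pass only through reprogrammed cells, and 32 of those 34 rose and none fell. Rises numbered 25 and 27 without iPSC replicate 1 or 2, and 18 with no filter. Stra8, a gatekeeper of meiotic entry, was listed at 0 in both MEF libraries and at 77.1 and 80.7 FPKM in iPSCs (adjusted p = 0.00041). Dazl, an RNA-binding protein of germ cells, went from 0 and 0 to 5.06 and 6.72 FPKM, and Ddx4, the germ cell helicase Vasa, from 0.0363 and 0.0281 to 6.13 and 4.64. Mael, of the piRNA pathway that silences transposons, rose from 0 and 0.0533 FPKM to 17.0 and 15.6. Stra8 stood above Zfp42 in both iPSC libraries, and the other 3 stood below it. Tdrkh was the only tested member with both iPSC libraries below both MEF libraries, at 3.23 and 2.06 against 1.30 and 1.07 FPKM (adjusted p = 0.16). Among 12 genes of the 2-cell stage 8 were tested and 7 of those rose, under the same limit of the filter, since 10 of the 12 were listed at 0 in each MEF library. The 2-cell rises numbered 5 and 7 without iPSC replicate 1 or 2, and 1 with no filter. Zscan4f, a member of a telomere-linked family of zinc-finger genes, was listed at 0 in both MEF libraries and at 32.7 and 11.5 FPKM in iPSCs. Zscan4c was at 0 and 0 against 18.6 and 5.99. Copies of this family are nearly identical, so how reads were divided among them is uncertain.

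Promoters of germline genes were searched for a sequence known from meiotic and germ cell genes. The E-box CACGTG (a palindrome, so the same on both strands) was present in the window from 250 bases before to 50 bases after the start site in 12 of 34 tested germline genes (35.3%), against 10.1% of all genes tested and 8.06% of the 20153 windows read. Of all tested genes with this E-box 9.90% were higher and 11.8% lower, against 10.4% and 16.0% of those without. The stretches around the E-box are shown for some of the tested holders. These genes rose, as did 32 of the 34 tested germline genes, with or without the E-box. Brdt, Slc25a31 and Tdrd9 of the list also hold it and were not tested. The stretches are 5′ to 3′ on the gene's strand, read from the mm9 genome, with the E-box in capitals.
Sycp3 (chr10:87922243-87922298, plus strand): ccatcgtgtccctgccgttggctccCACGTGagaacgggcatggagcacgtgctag
Mael (chr1:168169068-168169123, minus strand): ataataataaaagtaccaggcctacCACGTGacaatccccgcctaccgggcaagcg
Hormad1 (chr3:95363517-95363572, plus strand): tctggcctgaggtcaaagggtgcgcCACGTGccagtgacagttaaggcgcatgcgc
Taf7l (chrX:131011048-131011103, minus strand): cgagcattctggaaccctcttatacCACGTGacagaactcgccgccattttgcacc
Syce2 (chr8:87396044-87396099, plus strand): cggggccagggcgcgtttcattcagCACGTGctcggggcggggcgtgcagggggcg
Sycp3 and Syce2 encode parts of the synaptonemal complex that joins paired chromosomes, Hormad1 acts on unjoined meiotic chromosomes and Taf7l is a germ cell form of a basal transcription factor. Sycp3 rose from 0.101 and 0.0775 FPKM to 3.10 and 10.2 (log2 change 2.64, SE 0.43, adjusted p = 0.0055). The second match of Sycp3 stands in lower case near the end of its line. A match is a description of letters and not of a bound site.

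Genes of fibroblast identity fell. Of 40 fibroblast identity genes 37 fell and none rose, and their summed FPKM went from 19400 and 27727 in MEFs to 1264 and 1679 in iPSCs. Calls depended on both iPSC libraries, with 12 falls without iPSC replicate 1 and 26 without iPSC replicate 2, and on the filter, with 3 falls when it was omitted, while the list's median stayed between -4.16 and -2.82. Col1a1, the main chain of type I collagen, fell from 2144 and 1614 FPKM to 74.7 and 70.6 (log2 change -4.66, SE 0.51, adjusted p = 0.0015). Lox, which crosslinks collagen, fell from 514 and 212 FPKM to 3.27 and 17.0. S100a4, a calcium-binding protein used as a fibroblast marker, was the largest fall of the list, from 763 and 6944 FPKM to 7.42 and 87.2 (log2 change -6.40, SE 0.56, adjusted p = 0.00089). Its replicates differed widely in both cell types, yet each iPSC value lay below both MEF values. Vim, the intermediate filament vimentin, and Lgals1, a secreted galectin, were among the 5 largest falls in FPKM itself, Vim from 3302 and 5248 to 215 and 308 and Lgals1 from 3836 and 10684 to 339.8 and 431.

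The remaining 3 members of the fibroblast list were not called. Decorin (Dcn), a small matrix proteoglycan, was at 9.0 and 36.6 FPKM in MEFs and 30.2 and 40.5 in iPSCs. Lumican (Lum), a relative of it, was at 0.348 and 5.84 FPKM in MEFs and 5.88 and 8.59 in iPSCs, and Pdgfra, a receptor of fibroblast progenitors, at 4.28 and 5.18 against 1.92 and 3.35. Without MEF replicate 2 both Dcn and Lum were called higher in iPSCs. Feeder MEFs were present in the iPSC cultures, and their part in these values was not tested.

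Epithelial genes rose and mesenchymal regulators fell. Of 37 tested epithelial junction genes 26 rose and 2 fell, with a median log2 change of 2.16. There were 16 and 15 rises without iPSC replicate 1 or 2 and 9 with no filter. Cdh1, or E-cadherin, the adhesion molecule of epithelia, rose from 0.111 and 0 FPKM to 71.9 and 54.2 (log2 change 5.91, SE 0.49, adjusted p = 0.00078). Cdh2, or N-cadherin, its mesenchymal counterpart, fell from 56.2 and 18.9 FPKM to 1.01 and 2.38 (log2 change -3.69, SE 0.58, adjusted p = 0.0050). Epcam, an epithelial adhesion protein, rose from 0.0501 and 0.0387 FPKM to 41.3 and 67.6, and the tight junction gene Cldn6 from 0 and 0 to 15.4 and 26.2. The exceptions were Krt19, a keratin, which fell from 18.6 and 15.3 FPKM to 2.81 and 2.99, and Jup, or plakoglobin, which fell from 33.8 and 32.2 to 11.8 and 14.3. Of 29 tested mesenchymal transcription factors 24 fell and none rose. The falls numbered 5 and 12 without iPSC replicate 1 or 2, and 5 with no filter. Prrx1, a homeobox factor of limb and connective tissue, fell from 85.2 and 106 FPKM to 3.30 and 6.93 (adjusted p = 0.0029). Foxc2 fell from 22.1 and 19 to 0.458 and 0.389, and the repressors of E-cadherin Snai2 and Twist1 fell from 49.5 and 28.7 to 1.67 and 1.81 and from 27.4 and 44.9 to 2.72 and 3.31.

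The 2 largest falls were those of actin genes. Of 32 smooth muscle and actin cytoskeleton genes 28 fell and none rose, with a median log2 change of -3.28. Without iPSC replicate 1 17 fell, without iPSC replicate 2 22, and with no filter 17. Actg2, the enteric smooth muscle actin, fell from 522 and 761 FPKM to 1.29 and 1.83 (log2 change -7.96, SE 0.39, adjusted p = 0.00041). Acta2, the smooth muscle actin of activated fibroblasts, fell from 5762 and 9151 FPKM to 35.4 and 63.2 (log2 change -7.23, SE 0.50, adjusted p = 0.00066). The calponin Cnn1, which binds actin, fell from 238 and 385 FPKM to 1.57 and 2.75, and Tagln, an actin bundler, from 1807 and 3183 to 19.9 and 43.9. Myl9, the regulatory light chain of myosin, fell from 789 and 1339.8 to 12.5 and 20.0. The factor that drives many of these genes did not fall with them: Srf stood at 35.8 and 21.1 FPKM in MEFs and 27 and 22.9 in iPSCs, and the groups overlapped (log2 change -0.14, SE 0.39, adjusted p = 0.83). Mkl1, its actin-regulated coactivator, fell from 28.8 and 12.3 FPKM to 10.4 and 5.28 (log2 change -1.24, SE 0.35, adjusted p = 0.039).

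Serum response factor binds the CArG box, a run of A and T between CC and GG, searched for on both strands. It occurred in the promoter window of 6 of the 32 genes (18.8%), against 1.20% of all genes tested and 1.36% of all windows. Of 149 tested genes with a CArG box in this window 45 were lower in iPSCs (30.2%) and 11 higher (7.38%), against 15.4% and 10.3% of those without. The stretches around it in members of the contractile list are shown with the first box in capitals, 5′ to 3′ on the gene's strand in mm9.
Actg2 (chr6:83486293-83486352, minus strand): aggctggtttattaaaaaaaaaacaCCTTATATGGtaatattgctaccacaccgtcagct
Tagln (chr9:45744219-45744278, minus strand): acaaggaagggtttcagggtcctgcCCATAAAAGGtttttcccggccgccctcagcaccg
Myl9 (chr2:156601014-156601073, plus strand): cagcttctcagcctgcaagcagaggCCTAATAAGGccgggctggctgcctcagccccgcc
Cnn2 (chr10:79451264-79451323, plus strand): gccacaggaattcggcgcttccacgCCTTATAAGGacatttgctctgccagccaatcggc
Srf (chr17:46693159-46693218, minus strand): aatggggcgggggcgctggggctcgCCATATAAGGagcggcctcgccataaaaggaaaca
Srf carries a pair of these boxes in its own promoter and was the member of this set whose expression was not called. Cnn2, another calponin, fell from 716 and 783 FPKM to 24.3 and 41.9 (log2 change -4.51, SE 0.42, adjusted p = 0.0011). Acta1, the skeletal muscle actin, which was counted with the skeletal muscle markers, also holds the box and fell from 155 and 285 FPKM to 2.04 and 8.4.

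Genes of the TGF-beta pathway fell. Of 28 tested genes of the TGF-beta pathway 17 fell and 1 rose. Without iPSC replicate 1 or 2 the falls numbered 7 and 12, and with no filter 3. Tgfb1, the ligand, fell from 66.4 and 26.4 FPKM to 5.29 and 6.09 (log2 change -2.69, SE 0.47, adjusted p = 0.0073). The target Ctgf, a matrix growth factor, fell from 1409 and 669 FPKM to 17.5 and 56.1. Thbs1, which activates the latent ligand, fell from 1658 and 607 FPKM to 9.88 and 32.8, and Inhba, the activin A subunit, from 179 and 131 to 1.30 and 3.31. Ltbp4, a protein that stores latent TGF-beta in the matrix, was the rise, from 11.4 and 3.98 FPKM to 29.8 and 17.5.

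Nodal, an embryonic ligand of the same superfamily, rose with its coreceptor and inhibitors. Nodal itself was listed at 0 in both MEF libraries and at 39.1 and 34.4 FPKM in iPSCs (adjusted p = 0.0032). Tdgf1, the coreceptor Cripto, rose from 0 and 0.0833 FPKM to 258 and 488, and Foxh1, the transcription partner of its Smads, from 0 and 0.0710 to 67.4 and 33.4. The feedback inhibitor Lefty1 rose from 0.331 and 0.0512 FPKM to 114 and 187 (log2 change 6.96, SE 0.41, adjusted p = 0.00041), and Lefty2 from 0 and 0 to 26.3 and 43.7. Over the 16 tested genes of Nodal and Lefty signaling 8 rose and 2 fell, or 50% and 12.5% against 10.3% and 15.5% of all genes tested. Without iPSC replicate 1 or 2 there were 4 and 6 rises, with no filter 3, and no falls in any of these. Both that fell serve other ligands too: Furin, a protease that matures them, went from 74.7 and 22 FPKM to 7.99 and 8.63 and Smad3, a signal transducer, from 17.1 and 11 to 4.83 and 4.18. Neither call was kept when libraries were scaled to the upper quartile.

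Signals around leukemia inhibitory factor, Fgf and BMP moved both ways, with 9 of 36 tested genes higher and 13 lower (25% and 36.1%, against 10.3% and 15.5% of all genes tested). The counts were 5 and 2 without iPSC replicate 1, 4 and 8 without iPSC replicate 2, and 2 and 1 with no filter. Fgf4, the autocrine growth factor of pluripotent cells, was listed at 0 in both MEF libraries and at 54.8 and 56.3 FPKM in iPSCs (adjusted p = 0.00054). Socs3, a feedback target of Stat3, rose from 7.83 and 13.6 FPKM to 55.6 and 39.8 (log2 change 2.08, SE 0.44, adjusted p = 0.014). The BMP antagonist Grem1 fell from 56.5 and 15.6 FPKM to 0.350 and 0.567. The ligand Bmp4 fell from 6.96 and 17.8 FPKM to 1.65 and 1.73, and the BMP target Id1 from 65.6 and 169.6 to 24.2 and 32.3. Grem1, Bmp4 and Id1 were lower in both iPSC libraries than in either MEF library. Bmp7, another BMP ligand of the list, went the other way, from 0 and 0 FPKM to 3.96 and 3.75.

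Hox genes, which keep a record of position along the body axis, fell. Of 30 tested genes of the Hox clusters 23 fell and 1 rose, with a median log2 change of -2.17. Falls numbered 5 and 7 without iPSC replicate 1 or 2, and 3 with no filter, and the median stayed below that of all genes. Hoxb6 fell from 12.3 and 18.1 FPKM to 0.256 and 0.653 (log2 change -3.47, SE 0.46, adjusted p = 0.0029), and Hoxb2 from 21.2 and 37.9 to 1.41 and 2.46 (log2 change -3.35, SE 0.38, adjusted p = 0.0017). Hoxb13, the last gene of its cluster, was the rise, from 0 and 0 to 3.42 and 2.34 FPKM (adjusted p = 0.0056).

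Genes that write DNA methylation rose, and the enzymes that remove it, counted in the same list, are not described here. Of 16 tested genes of DNA methylation and its removal 8 rose (50%, against 10.3% of all genes tested) and 2 fell. The falls (12.5%) were no more frequent than the 15.5% of all genes tested. The rises numbered 3 and 2 without iPSC replicate 1 or 2, and 2 with no filter. Dnmt3l, the cofactor of de novo methylation, was listed at 0 in both MEF libraries and at 83.7 and 67.8 FPKM in iPSCs (adjusted p = 0.00041). Dnmt3b rose from 0.546 and 0.317 FPKM to 40.9 and 45.7 (log2 change 4.95, SE 0.67, adjusted p = 0.0030), Dnmt3a from 3.0 and 2.34 to 23.3 and 12.4, and the maintenance enzyme Dnmt1 from 33.5 and 7.62 to 58.2 and 37.0 (adjusted p = 0.039). The methyl-CpG readers Mbd2 and Mbd1 fell, Mbd2 from 46.7 and 53.4 FPKM to 8.86 and 10.3 and Mbd1 from 10.6 and 8.61 to 3.77 and 3.28.

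Of 38 tested genes of Polycomb and H3K9 methylation 11 rose (28.9%, against 10.3% of all genes tested) and 4 fell (10.5%, against 15.5%), with a median log2 change of 0.43. Without either iPSC replicate 3 rose and 1 fell, and with no filter 2 and 1. Cbx7, the chromobox protein of pluripotent cells, rose from 0.866 and 0.509 FPKM to 52.7 and 49.5 (log2 change 4.96, SE 0.38, adjusted p = 0.00073). Jarid2, which guides the H3K27 methyltransferase, rose from 2.86 and 1.26 FPKM to 32.2 and 34.0. Phc1 rose from 10.9 and 4.46 FPKM to 78.3 and 91.3 while its paralog Phc2 fell from 104 and 66.0 to 11.5 and 10.5. The methyltransferase Ezh2 was at 26 and 14.1 FPKM in MEFs and 38.5 and 46.5 in iPSCs, which did not pass the test (adjusted p = 0.077).

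Genes of DNA replication rose in part. Of 33 tested replication and mitosis genes 13 rose (39.4%, against 10.3% of all genes tested) and none fell (against 15.5%). In place of 13, 3 and 3 rose without iPSC replicate 1 or 2, and 3 with no filter. Mybl2, a transcription factor of dividing cells, rose from 16.4 and 4.04 FPKM to 122 and 84.8 (log2 change 3.46, SE 0.41, adjusted p = 0.0019), and the replication licensing gene Cdt1 from 16.3 and 9.15 to 117 and 61.2. Cdt1 lies on chromosome 8, raised in iPSC replicate 1, and kept its call with that replicate lowered by its excess there. Cdk1, the mitotic kinase, was at 40.9 and 52.6 FPKM in MEFs and 36.5 and 34.3 in iPSCs (adjusted p = 0.45). Of 20 cell cycle inhibitors and D cyclins 5 fell (25%, against 15.5% of all genes tested) and 1 rose, with 2 falls and no rise when either iPSC replicate was left out and neither with no filter. Ccnd2, cyclin D2, fell from 143 and 177 FPKM to 3.39 and 9.73 (log2 change -4.54, SE 0.45, adjusted p = 0.0012), and Cdkn2b, the inhibitor p15, from 40.2 and 95.0 to 4.33 and 5.47. Within the Gadd45 family of stress-response genes Gadd45g fell from 125 and 187 FPKM to 8.37 and 9.51 and Gadd45a rose from 6.26 and 17.5 to 19.8 and 46.6. Of 17 tested telomere genes 3 rose (17.6%, against 10.3% of all genes tested), Rif1 from 4.87 and 2.14 FPKM to 16.3 and 24.4 and Terf1 from 9.16 and 10.5 to 18.8 and 39.8 among them, whereas Tert was at 0.752 and 0.112 against 0.785 and 0.788 (adjusted p = 0.45). Without iPSC replicate 1 the telomere list had 1 rise, and 0 without iPSC replicate 2 or with no filter.

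Of 23 tested genes of threonine, serine and one-carbon metabolism 5 rose (21.7%, against 10.3% of all genes tested), none fell and 18 were not called, with a median log2 change of 0.40. The rises numbered 3 without either iPSC replicate and 4 with no filter. Tdh, the threonine dehydrogenase, was listed at 0 in both MEF libraries and at 23.8 and 28.6 FPKM in iPSCs (adjusted p = 0.00075). Gldc and Amt, of the glycine cleavage system that feeds on its product, rose from 0.131 and 0.0609 FPKM to 24.6 and 25.8 and from 0.496 and 0.127 to 24.4 and 28. Of 22 tested glycolysis genes 7 rose (31.8%) and none fell, with 2 rises when either iPSC replicate was left out and 1 with no filter. Besides Slc2a3 these included Aldoc, a brain aldolase, from 0.496 and 1.20 FPKM to 14.8 and 12.8, and Pdk1, a kinase that inhibits pyruvate dehydrogenase, from 1.29 and 3.35 to 20.6 and 26.

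**Figure D3:**
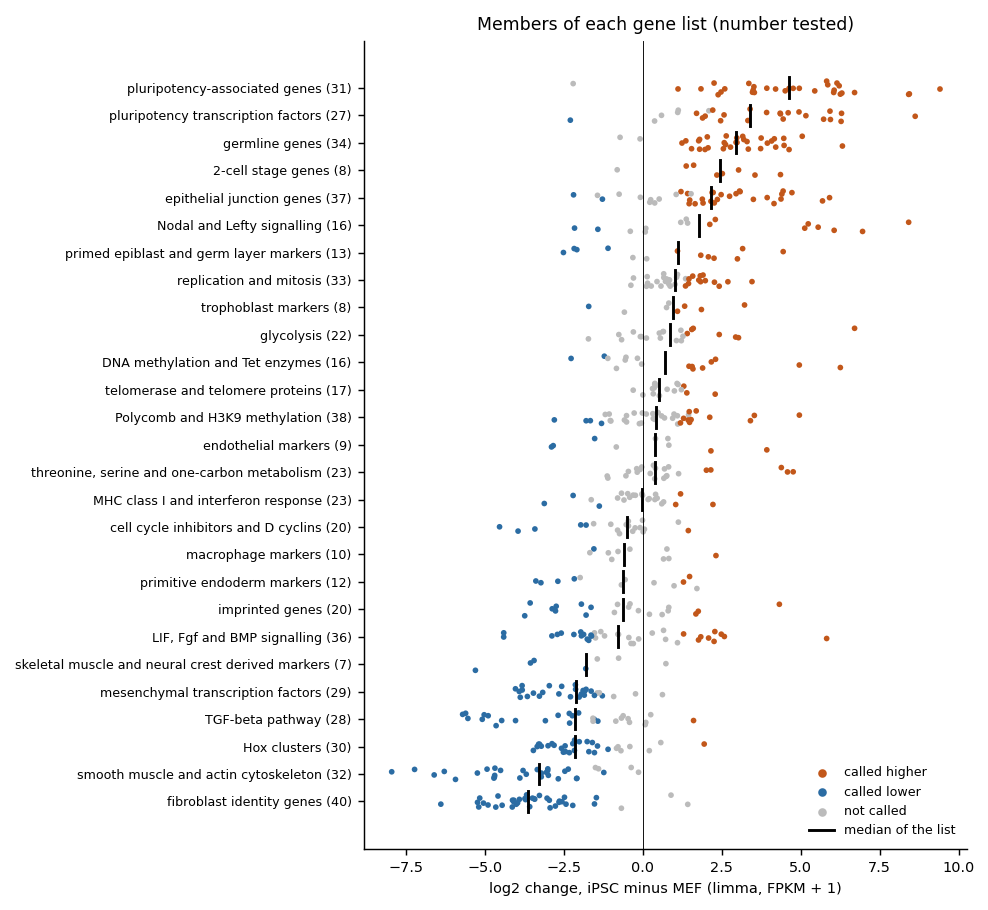
Log2 change (iPSC minus MEF, limma on FPKM + 1) of the members of each gene list with at least 5 genes tested, with the number tested in parentheses; points are genes colored by call and the bar is the list's median. Medians run from -3.63 for fibroblast identity genes to 4.63 for pluripotency-associated genes, against -0.14 for all genes tested.

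Markers of other cell types are set against the 10.3% of all tested genes that rose and the 15.5% that fell. With no filter on low values each of these lists had at most 1 rise and 1 fall. Of 16 trophoblast markers 8 were tested, 4 of them rose and 1 fell, with 2 rises and no fall when either iPSC replicate was left out. The rises included 2 genes that passed the filter only through reprogrammed cells, Esx1 (0 and 0 against 17.6 and 3.67 FPKM) and Rhox6 (0 and 0 against 2.67 and 2.55), both X-linked homeobox genes. Of 12 primitive endoderm markers 2 rose, Gata4 from 0.0876 and 0.339 FPKM to 2.24 and 1.67 and Amn from 0.188 and 0.0484 to 1.11 and 3.57, and 4 fell, among them the basement membrane collagens Col4a1 and Col4a2. Neither rise passed without iPSC replicate 1 or 2, and the falls numbered 1 and 5. Of 13 markers of the primed epiblast and germ layers 7 rose and 4 fell, against 5 and 0 without iPSC replicate 1 and 3 and 3 without iPSC replicate 2. Otx2, a factor of the epiblast, was listed at 0 in both MEF libraries and at 23.1 and 18.6 FPKM in iPSCs. It was also counted above among the pluripotency transcription factors. Sox1, of neural progenitors, rose from 0.0243 and 0 FPKM to 11 and 5.84. Meis1 fell from 10.7 and 7.58 FPKM to 0.290 and 1.37, and nestin (Nes) from 41.3 and 27.8 to 5.31 and 8.43. Of 9 endothelial markers 2 rose, including Pecam1, which pluripotent cells also carry (0 and 0 against 15.9 and 12.7 FPKM), and 3 fell, including the receptor Flt1 (18.0 and 4.65 against 0.322 and 0.581). The endothelial list had 1 rise and no fall without iPSC replicate 1. Of 10 macrophage markers 1 rose and 1 fell, close to the shares of all genes, and their summed FPKM was 55.8 and 38 in MEFs and 22.3 and 82.5 in iPSCs. Of 7 tested skeletal muscle and neural crest markers 4 fell, led by Acta1 and by Tnnt2, a troponin, at 9.38 and 15.6 against 0.236 and 0 FPKM, and 3 fell without either iPSC replicate.

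Chromosome 8 of iPSC replicate 1 stood apart from the rest of the genome and is therefore described by itself. The median difference of its 672 tested genes in the first table lay 0.51 above that of the other autosomes on the log2 scale, which is 1.42-fold, and 0.05 above in the repeat table. The other autosomes lay between -0.35 and 0.34 in the first table and between -0.15 and 0.21 in the repeat table. Compared directly, iPSC replicate 1 exceeded iPSC replicate 2 by 0.51 on chromosome 8, against -0.17 to 0.13 on the other autosomes. The MEF replicates differed there by 0.003. On this scale 62.8% of chromosome 8 genes lay above 0 for the first table, against 46.0% for the repeat table, and the corresponding shares of the other autosomes were 43.9% and 45.6%. Medians of successive runs of genes along the chromosome differed. No runs of this size were taken on other chromosomes, so the spread of such a median is unknown. Chromatin reads were not counted by run. Of 10 successive runs of 67 or 68 genes, the third (chr8:36650852-67212375) lay at 0.02 in the first table. The first, second and seventh lay at 0.28 to 0.29, and the remaining runs between 0.48 and 0.87. In the repeat table all runs lay between -0.18 and 0.19. Compared directly, iPSC replicate 1 exceeded replicate 2 by 0.13 in the third run and by 0.32 to 0.82 in the other runs. With length and GC content regressed out the excess was 0.54 and the other autosomes lay between -0.20 and 0.22.

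Calls on chromosome 8 depended on this offset in part. There 92 genes were higher (13.7%) and 70 lower (10.4%). With iPSC replicate 1 lowered by its excess on this chromosome, 69 were higher and 89 lower, and 69 and 70 genes were called higher and lower in either case. Among those no longer called were Sf3b3, a splicing factor, and Cnot1, the scaffold of a deadenylase, chosen here after their values were seen. The log2 differences in the first and repeat tables were 1.30 and 1.21 for Sf3b3 and 0.71 and 2.02 for Cnot1. The rise of Cnot1 was thus larger in the repeat table, and its limma adjusted p before lowering was 0.049. The germline gene Tex15, counted above among the germline rises, also lost its call, at 0.466 and 0.467 against 2.87 and 2.09 FPKM. The pluripotency and epithelial genes on the chromosome kept their calls, Zfp42 and Cdh1 among them, as did the collagens Col4a1 (249 and 111 against 13.4 and 21.1 FPKM) and Col4a2 (197 and 116 against 10.8 and 16.9). Of the 5 genes with the largest excess of the first over the repeat table, only Syce2 was called, at 5.20 and 26.6 FPKM in MEFs and 158 and 65.9 in iPSCs (log2 change 2.98, SE 0.74, adjusted p = 0.025). Its call was lost without iPSC replicate 1 and kept with that replicate lowered by its excess. The metallothionein Mt2 was at 34.6 and 325 against 362 and 309 FPKM (adjusted p = 0.19), 2810428I15Rik at 30.3 and 124 against 148 and 42.3, BC056474 at 54.5 and 223 against 96.8 and 34.5 and Trappc2l at 30.8 and 170.0 against 55.1 and 31.6. In these 4 genes MEF replicate 2 was also far above MEF replicate 1. Outside chromosome 8, 1187 of 11729 genes were higher and 1857 lower.

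**Figure D4:**
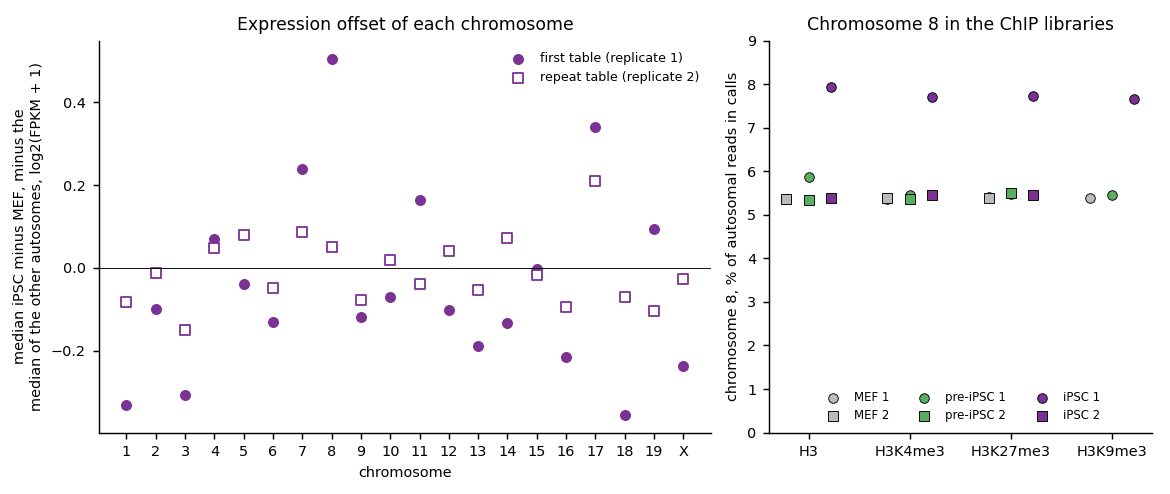
Left, median of iPSC minus MEF per chromosome minus the median of the other autosomes, in log2(FPKM + 1), for the first table (circles) and the repeat table (open squares); chromosome 8 is at 0.51 and 0.05. Right, percent of autosomal reads of each chromatin library that fall on chromosome 8, by antibody, cell type (color) and replicate (shape); the 4 libraries of iPSC replicate 1 lie between 7.65% and 7.94%, and MEF libraries between 5.37% and 5.40%.

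Chromatin of the same cell types, which the calls did not use, differed at the promoters of the called genes. H3K4me3 marks active promoters and H3K27me3, deposited by Polycomb, marks repressed ones. Reads were summed within 500 bp of the start site and scaled to each library's total. For H3K27me3 both iPSC libraries exceeded both MEF libraries at 49.5% of promoters of genes that fell, 25.9% of genes not called and 11.4% of genes that rose, against 28.1% of all tested. Both lay below at 37.5% of promoters of genes that rose, 11.6% of genes not called and 5.29% of genes that fell, against 13.3% of all. Median H3K27me3 at genes that fell was 0.15 and 0.13 scaled reads per kb in MEFs and 0.358 and 0.295 in iPSCs. At genes not called it was 0.15 and 0.13 against 0.215 and 0.148. At genes that rose it was 0.299 and 0.394 against 0.215 and 0.221. The smallest non-zero values at named genes were 0.0748 and 0.0656 in MEFs and 0.0716 and 0.0738 in iPSCs. These medians are only a few such steps, so above or below can turn on few reads. For H3K4me3 both iPSC libraries were above at 26.3% of promoters of genes that rose, 5.58% of genes not called and 3.53% of genes that fell, against 7.40% of all, and below at 27.8%, 50.8% and 51.5%, against 48.5% of all. The H3 libraries themselves differed, and iPSC replicate 1 stood apart from its own replicate. At genes that fell the median H3 signal was 0.207 and 0.193 scaled reads per kb in MEFs and 0.648 and 0.246 in iPSCs. Counted as before, H3 had both iPSC libraries above at 30.0% of promoters of genes that rose, 44.3% of those not called and 51.5% of those that fell. Both lay below at 5.08%, 1.44% and 1.35%. A share over all tested promoters was not taken for H3, but genes not called were 9195 of the 12401 tested. The MNase digestion of MEFs differed from that of the reprogrammed cells, and its part in these shares was not tested.

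The marks were also counted by gene group. Among the 40 fibroblast genes H3K27me3 was above in both iPSC libraries at 30 promoters and below at none, and H3K4me3 was above at 1 and below at 24. H3 itself was above at 29 of these 40 promoters and below at none, and its part in the H3K27me3 count was not tested. H3 was above at 14 of the 30 Hox promoters and 15 of the 29 of the mesenchymal factors, and below at none. Genes not called had H3 above at 44.3% of promoters, so the Hox and mesenchymal counts lie near that share. Among the 30 Hox genes H3K27me3 was above at 19 and below at 2, and H3K4me3 was above at 5 and below at 4. Prrx1 is an example of the mesenchymal factors, of which 16 of 29 were above for H3K27me3 and 2 below: its promoter held 0.15 and 0.13 scaled reads per kb in MEFs and 1.07 and 0.74 in iPSCs. Of the 31 pluripotency-associated genes 22 were below for H3K27me3 and none above, and for H3K4me3 16 were above and 3 below. Otx2 had 1.12 and 1.51 H3K27me3 scaled reads per kb in MEFs and 0.36 and 0.44 in iPSCs, and Nanog 1.12 and 1.05 against 0.29 and 0.44. Of the 34 germline promoters 18 were above for H3K4me3 and 3 below, while H3K27me3 was above at 6 and below at 8. The H3K27me3 and H3K4me3 counts are to be read against the shares of all tested promoters given before. The H3K27me3 counts share the limit of few reads per promoter. For H3 the share of genes not called stands in their place.

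Promoters of genes in both directions had fewer CpG than the other genes tested. The ratio of observed to expected CpG had a median of 0.69 in genes that rose, 0.71 in genes that fell and 0.80 in tested genes not called. The share of genes called higher went from 18.0% and 18.4% in the 2 classes of lowest CpG ratio to 8.63% in the highest class, and the share called lower from 16.6% and 22.5% to 10.5%. The 219 genes listed at 0 in both MEF libraries and at 1 FPKM or more in both iPSC libraries, of which 196 were called, had a median ratio of 0.40, and 27.9% of them reached 0.6 against 51.2% of all genes in the tables and 73.4% of all tested. Only 11 genes showed the reverse, all of them called lower, led by Lce1h, a gene of the cornified envelope, at 22.7 and 13.1 FPKM in MEFs.

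**Figure D5:**
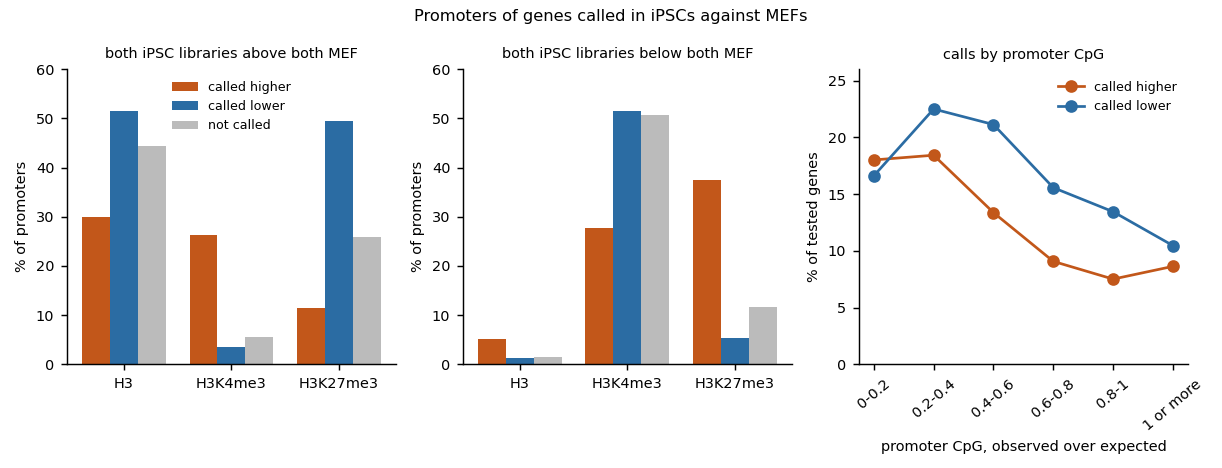
Left and middle, percent of promoters at which both iPSC libraries lay above, or below, both MEF libraries for H3, H3K4me3 and H3K27me3, for genes called higher, called lower and not called. Right, percent of tested genes called higher or lower in classes of the observed to expected CpG ratio of the promoter; H3K27me3 was above at 49.5% of promoters of genes that fell and 11.4% of genes that rose.

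The octamer ATGCAAAT, the letters Oct4 is known to read, was searched for on both strands of the same windows. It was present in 2.50% of promoters of genes that rose, 1.45% of genes that fell and 1.46% of all genes tested (1.70% of all windows), and 17.7% of tested genes with the octamer were higher against 10.2% of those without. It lay in the windows of 3 of 27 pluripotency transcription factors, shown here with the octamer or its reverse complement in capitals, 5′ to 3′ on the gene's strand in mm9.
Otx2 (chr14:49282655-49282712, minus strand): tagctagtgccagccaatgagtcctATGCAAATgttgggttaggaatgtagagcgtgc
Zfp296 (chr7:20162500-20162557, plus strand): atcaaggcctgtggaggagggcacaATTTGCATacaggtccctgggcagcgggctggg
Zfp42 (chr8:44392517-44392574, minus strand): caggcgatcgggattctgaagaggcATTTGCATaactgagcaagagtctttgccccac
All 3 rose, as did 21 of the 27 tested pluripotency transcription factors, with or without the octamer. Otx2 and Zfp42 were listed at 0 in both MEF libraries, so only reprogrammed cells could carry them past the filter. Their rise is therefore no support for the octamer. Zfp296 went from 0.840 and 1.51 FPKM to 25.8 and 18.1. Spp1, which also holds an octamer, was not called. The AP-1 letters TGACTCA, a site of Fos and Jun factors in fibroblasts, were in 4.72% of promoters of genes that fell, 3.68% of genes that rose and 3.43% of all genes tested (4.44% of all windows), and 21.4% of tested genes with them were lower against 15.3% of those without. Matches of different motifs were counted independently, whether or not they overlapped.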

How the data were processed

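RNA-seq of MEFs, pre-iPSCs and iPSCs (2 libraries each) was used, with the 21 MNase chromatin libraries as another readout. Per the study's methods the authors aligned RNA reads to mm9 with TopHat2 2.0.4, kept unique reads and calculated FPKM with Cuffdiff 2.0.2; the deposited FPKM values fill 2 tables normalized separately. The authors aligned chromatin reads with Bowtie 1.0.1, allowing at most 2 mismatches, shifted them by 73 bp and called nucleosomes; the deposited read counts per nucleosome call were summed here within 500 bp of the start site given in the files and per chromosome. The submitters' processing notes name the same aligners and Cufflinks, of which Cuffdiff is a part.

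Genes whose mean FPKM over the 6 RNA-seq libraries reached 0.5 were kept, and log2(FPKM + 1) was fitted with limma 3.58.1 (R 4.3.3) with a trend, cell type and table as terms; the design took FPKM as given, since the count test of the methods cannot be run on it. Calls needed a Benjamini-Hochberg adjusted p below 0.05 and 2-fold. The script was tested on simulated data. The deviations of libraries with the same number had an r of -0.20 between MEFs and iPSCs, 0.35 between MEFs and pre-iPSCs and 0.11 between pre-iPSCs and iPSCs, so the numbers were not taken to pair samples, and the block stands for the table. Named genes were the 12 largest rises and falls among calls going the same way in both tables, the 2 largest rises and falls called in each list, reprogramming, marker and Y-linked genes fixed by name, the 5 largest rises and falls in FPKM and the 5 chromosome 8 genes with the largest excess of the first table; further list members are named as examples. The comparison, members and gene lists were chosen with earlier results of these data known. Promoter windows of 300 bases were read from the mm9 genome at the files' start sites. Xist, Meg3 and H19 were not analysed here. Some genes that the naming rule selects are not reported here. Alternatives covered the pseudocount, filter, scaling, block, trend, each library left out and chromosome 8.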

Additional observations from a re-analysis of the deposited data

Results flagged for a closer look

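The chromatin libraries, which the expression comparison did not use, also set chromosome 8 of iPSC replicate 1 apart, and were marked because the signal exceeded the level in MEFs. Chromosome 8 held 7.94% of the autosomal H3 reads in nucleosome calls in that replicate, 7.71% of the H3K4me3 reads, 7.73% of the H3K27me3 reads and 7.65% of the H3K9me3 reads. These shares were 1.48, 1.43, 1.43 and 1.42 times the MEF mean of the same antibody. In iPSC replicate 2 the shares lay between 5.38% and 5.47%, in MEFs between 5.37% and 5.40% and in pre-iPSCs between 5.35% and 5.87%. Among the other autosomes the ratio of iPSC to MEF lay between 0.840 and 1.14 over all antibodies and replicates. The rise in RNA of the same chromosome in the same replicate was 1.42-fold on log2(FPKM + 1). It was 1.53-fold with no pseudocount, over genes above 1 FPKM in all 4 libraries. A median over genes and a share of reads are unlike measures, so their sizes are not to be matched. A cause was not tested.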

How the results depend on the processing

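No gene called higher or lower was called in the other direction under any alternative. The number of genes higher in iPSCs (1279) became 611 with a pseudocount of 5 FPKM, 283 with no filter on low values and, in an alternative chosen after seeing the data, 1931 with transcript length and GC content corrected under the replicate block; leaving out a library gave 360 to 1406. The number lower (1927) became 266 with no filter, and 295 to 2285 without a library. With no filter 20156 genes were tested, and 819 had an adjusted p below 0.05. Without the replicate block 1185 were higher and 1819 lower, with the 4 MEF and iPSC libraries alone under the block 1176 and 1692, and with a crossed pairing of these, also chosen after seeing the data, 1262 and 1838; the numbers were not taken to pair samples. Quantile normalization gave 1584 and 1719. The r between the tables (0.702) was 0.752 with a pseudocount of 0.1 FPKM, 0.728 after quantile normalization and 0.774 with length and GC corrected. The chromosome 8 excess of the first table lay between 0.36 and 0.66 over its alternatives. Of 2093 log2 changes of named genes over 19 alternatives, 1865 kept their direction and side of the threshold, 210 fell below it, 5 passed it and 13 turned in 7 genes, none of them called. Leaving out 1 library moved Ddx3y between -1.50 (without iPSC replicate 2) and 0.11 (without iPSC replicate 1), with 0.02 without MEF replicate 1; Eif2s3y between -0.19 (without MEF replicate 2) and 1.06, with -0.08 without iPSC replicate 2; Uty between -0.50 and 0.79, with -0.40 without MEF replicate 2; 2810428I15Rik between -1.17 (without iPSC replicate 1) and 1.90, with -0.93 without MEF replicate 1; BC056474 between -2.23 and 0.39 (without MEF replicate 2), with 0.38 without iPSC replicate 2; Mt2 between -0.087 (without MEF replicate 1) and 3.36; and Trappc2l between -2.17 and 0.60 (without MEF replicate 2), with 0.23 without iPSC replicate 2. Where the cause of a change lies other than in fewer libraries, it was not tested. With 2 libraries a side and no read counts, small differences of low genes could not be resolved.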

Other observations

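Of 20 tested imprinted genes, expressed from 1 parental copy, 3 were higher (15.0%, against 10.3% of all genes tested) and 8 lower (40%, against 15.5%) in iPSCs by limma. Without iPSC replicate 1 there were 1 and 1, without iPSC replicate 2 there were 1 and 2, and with no filter on low values no member was called by limma. The list's median log2 change was -0.63, at -1.16 in the first table and 0.25 in the repeat table, so its direction was not stable. Igf2, a fetal growth factor, fell from 680.4 and 582 FPKM to 64.4 and 32.9, and Grb10, a brake on insulin signaling, from 179 and 224 to 22.9 and 11. Phlda2, a placental growth regulator, rose from 1.03 and 0.264 FPKM to 59.3 and 16.1, and Snrpn, a splicing protein, from 12.5 and 29.8 to 69.9 and 65.8. Of 23 tested genes of MHC class I and the interferon response 3 rose and 3 fell (13.0% each, close to the 10.3% and 15.5% of all genes tested), and their median of -0.03 changed sign between settings, from -0.71 to 0.38, with no calls without iPSC replicate 1 or with no filter. B2m, the light chain of MHC class I, fell from 654 and 1727 FPKM to 126 and 117 and the antiviral membrane protein Ifitm3 from 266 and 1726 to 87.9 and 242. Bst2, another antiviral membrane protein, rose from 9.16 and 44.9 FPKM to 133 and 74.5, and lies on chromosome 8. Its call was lost without iPSC replicate 1, as were all calls of this list. It was kept when chromosome 8 of that replicate was lowered by its excess.

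The sex chromosomes were measured apart. The 4 tested Y-linked genes were not called, with Eif2s3y at 18.7 and 11 FPKM in MEFs and 14.7 and 26.2 in iPSCs, and Ddx3y at 8.60 and 5.06 against 1.94 and 6.56. Kdm5d lay lower in both iPSC libraries, at 2.36 and 1.18 against 0.660 and 0.483. Usp9y, Zfy1 and Sry did not pass the filter. The X chromosome held 3.11% to 4.30% as many chromatin reads as the autosomes in MEF libraries and 2.00% to 2.58% in iPSC libraries, which did not overlap. In pre-iPSC libraries the X share was 1.33% to 2.66%, so low values were not particular to iPSCs. In expression X-linked genes of iPSCs against MEFs lay 0.24 below the autosomes in the first table and 0.03 below in the repeat table. Pou5f1 had an uneven H3 signal at its promoter, at 3.13 and 0.42 reads per kb scaled to the library in MEFs and 5.37 and 2.78 in iPSCs, in cells that also carry the Oct4-GFP transgene. The MEF replicates split in the other antibodies too, at 3.74 and 0.079 for H3K4me3 and 2.84 and 0.197 for H3K27me3, so MEF replicate 2 stood apart there. The part of the transgene in these values was not tested.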
